A study of Homo sapiens with 12 samples.

Results

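PEO4, an established human ovarian cancer cell line, was compared in control medium and after 6 days with recombinant human transforming growth factor beta (TGFbeta, written TGF-β here) at 10 ng/mL. With TGF-β, 242 of 19064 genes tested were higher and 189 were lower. Among named protein-coding genes of at least 5 CPM (counts per 1e6 counts), the highest fold changes belonged to the matrix genes COL7A1, FN1, COL3A1 and LTBP2 and to NOX4, an oxidase that makes hydrogen peroxide. Among the genes that fell were 5 of 10 tested bone morphogenetic protein (BMP) response genes, 4 of 12 genes of MHC class II presentation and 6 of 21 Müllerian or serous ovarian genes. None of 30 proliferation genes, 27 citrate cycle and respiratory chain genes or 17 MHC class I genes passed the test in either direction. Of these, 4, 2 and 3 had an unadjusted p under 0.05, and DESeq2 called 0, 2 and 0. Among all 19064 genes, 431 passed (2.26%), 3175 had an unadjusted p under 0.05 and DESeq2 called 967. At a share of 2.26%, lists of this size can hold no called gene without differing from the rest.

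The comparison used 6 libraries, 3 biological replicates of each condition, out of 12 in the series. The other 6 came from the colorectal lines SW480 and SW620, which received no treatment. Both PEO4 groups grew in RPMI 1640 with 10% fetal bovine serum and 1% penicillin/streptomycin, and serum was therefore present in both. The model is 1 cell line at 1 dose and 1 time, and RNA came from whole cultures. In such bulk RNA, fewer cells of a type and less RNA per cell cannot be told apart. All p-values here measure the spread between these cultures of 1 line.

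TGF-β binds a pair of serine/threonine kinase receptors, TGFBR2 and TGFBR1, which phosphorylate SMAD2 and SMAD3. These join SMAD4 and enter the nucleus. BMPs, of the same cytokine family, signal through other receptors to SMAD1, SMAD5 and SMAD9, whose best known targets are the ID genes. In epithelial cells TGF-β is known for growth arrest, matrix production and epithelial-mesenchymal transition (EMT), a change toward a motile cell type that carcinoma cells undergo to different degrees. PEO4 is a serous ovarian carcinoma line, of the tumor type thought to arise from Müllerian epithelium such as that of the fallopian tube.

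Library totals were 18.45 to 20.46 in control and 20.53 to 21.62 with TGF-β, in units of 1e6 counts. Values are CPM on library totals scaled by TMM factors, and 3 counts correspond to 0.134 to 0.163 CPM. The labelled tissue was checked with PAX8, the transcription factor that marks Müllerian epithelium. It stood at 512, 522 and 489 CPM in control replicates 1 to 3 and at 575, 496 and 481 CPM in TGF-β replicates 1 to 3, and the groups overlapped. PAX8 is 1 of 8 listed markers of serous ovarian carcinoma. WT1, EPCAM, KRT7, MUC16 and WFDC2 were at 34.1 CPM or more in every library. The other members were low, with 27 to 42 counts per library for SOX17 and 1 to 10 for MECOM. Summed over 6 leukocyte markers, the range was 3.63 to 6.02 CPM in control and 4.12 to 6.06 CPM with TGF-β. For 4 endothelial markers the sums were 3.26 to 3.82 and 2.12 to 2.64 CPM. The sums of 5 fibroblast markers were 0.653 to 0.918 and 1.43 to 2.02 CPM, and PDGFRA had at most 2 counts in any library. No leukocyte, endothelial or fibroblast marker of these lists passed the test. Of 6 intestinal markers, 4 had 3 counts or fewer in every library, CDX1 had 0, and the sums were 0.714 to 3.02 and 0.818 to 2.28 CPM.

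Genes were called at an adjusted p under 0.05 in edgeR's quasi-likelihood test with Benjamini-Hochberg adjustment. Where a gene is said to rise, fall or change by a value, or a list has a median, the value is a log2 fold change. The 431 called genes were 2.26% of those tested, with 1.27% higher and 0.991% lower. These shares are the background against which each gene group below is read. For the other counts given by list, 3175 of all 19064 genes had an unadjusted p under 0.05, and DESeq2 called 967. The median log2 fold change of all tested genes was -0.02, with 9091 of the 19064 positive and 9973 negative. At least a 2-fold change was reached by 108 of the higher and 92 of the lower genes. Exons of 180 of the 431 overlap another annotated gene, 152 of them on the opposite strand, and whether counting used strand is not given in the sources used here, so counts of such genes are uncertain. Of the genes described below this holds for COL16A1, MMP9, ADAM19, CDKN1A, VDR, SOX4, TAGLN, TUBA4A, FLNC, KRT7, WT1, FADS1, FADS2, STRA6 and LTBP2, among others. In all 431 genes the 3 control values and the 3 TGF-β values did not overlap. Such separation is likely in genes chosen by this test and adds no evidence to the calls. Its share over all genes tested is not given here. The authors' deposited table gave 964 genes an adjusted p under 0.05, and 425 of the 431 were among them, all in the same direction.

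**Figure D1:**
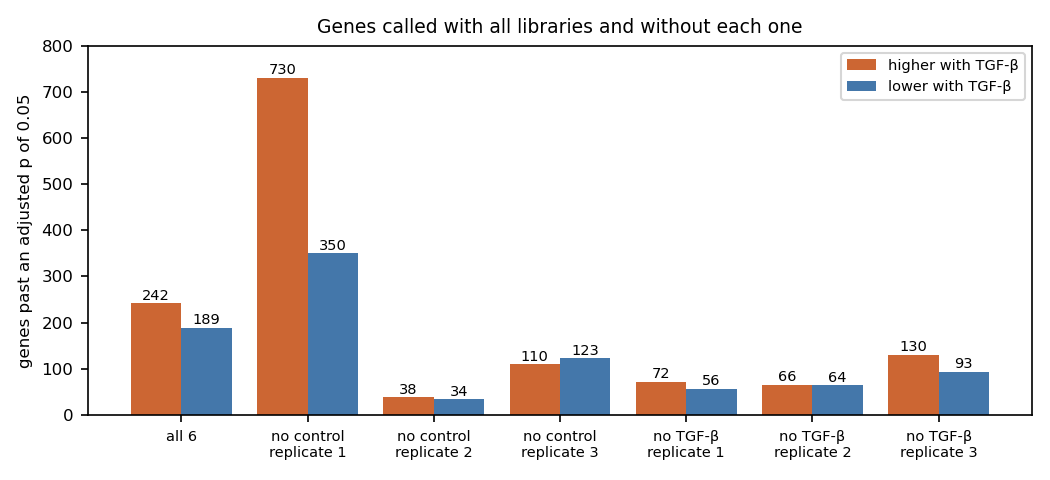
Number of genes past an adjusted p of 0.05 (vertical axis) with all 6 libraries and with each library left out in turn, for genes higher (orange) and lower (blue) with TGF-β. The count was highest without control replicate 1 (730 higher, 350 lower) and lowest without control replicate 2 (38 higher, 34 lower).

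Control replicate 1 lay nearer to the treated cultures than the other controls did. It was the highest control in 180 of the 242 higher genes and the lowest control in 131 of the 189 lower genes. Without it 1080 genes were called, and without control replicate 2 only 72. In all 6 fits that each left out 1 library, 67 genes were called (38 higher, 29 lower). All 431 kept their direction, which non-overlapping groups make nearly certain when 1 library is dropped. Genes in this set of 67 are said below to have kept the call, and for the others the libraries whose loss ended the call are named with the highest adjusted p.

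**Figure D2:**
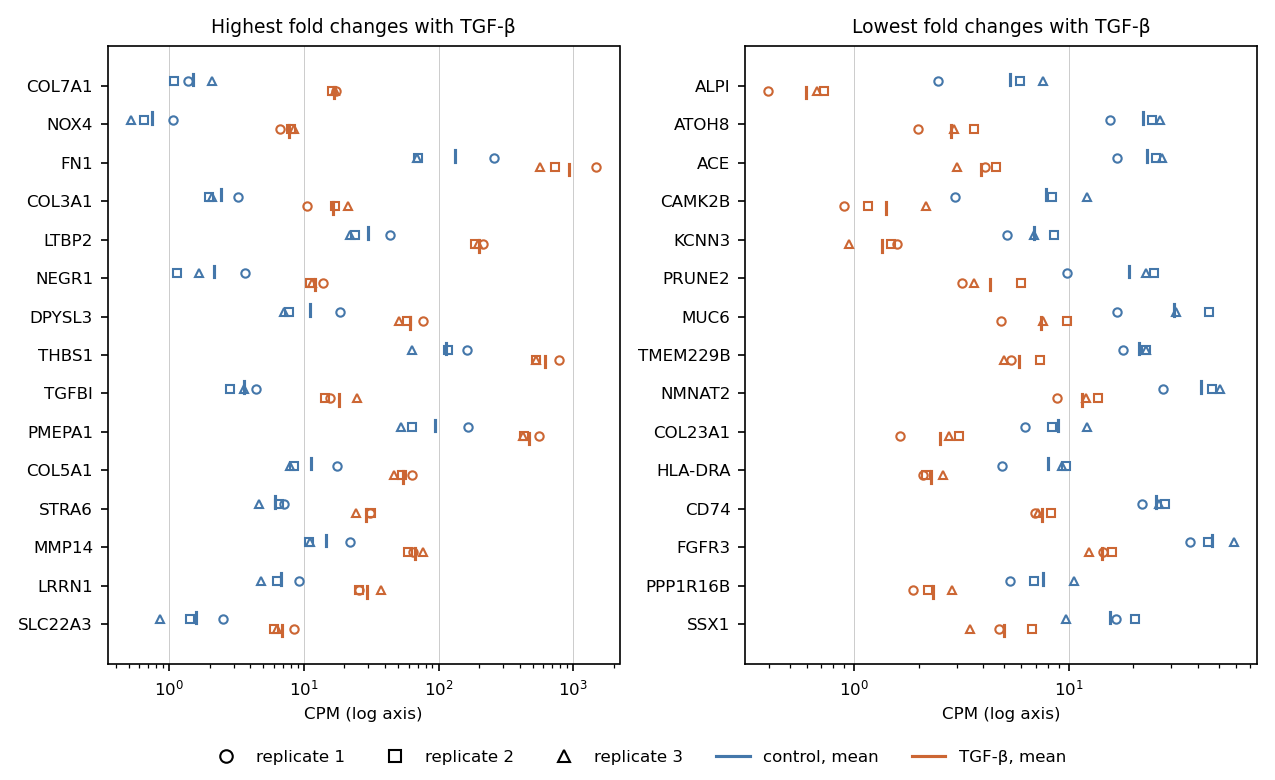
CPM on a log axis for the 15 genes with the highest (left) and the 15 with the lowest (right) log2 fold change among called genes with at least 5 CPM in the higher group. Open symbols are single libraries, shaped by replicate number, and vertical lines are group means for control (blue) and TGF-β (orange). Only genes with a gene symbol rather than a clone name and with groups that did not overlap were eligible.

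Of the 15 genes with the highest fold changes in the plot of single libraries, 7 code for secreted matrix proteins: COL7A1, FN1, COL3A1, LTBP2, THBS1, TGFBI and COL5A1. Of 6 tested fibrillar collagens 2 rose and none fell (33.3% higher), and the list's median log2 fold change was 0.30. Of 15 basement membrane and other collagens 2 rose and none fell, with a median of 0.12. COL7A1 codes for the collagen of anchoring fibrils, which fasten epithelium to the tissue beneath. The gene (chr3:48564073-48595267, GRCh38, minus strand) was at 1.38, 1.09 and 2.07 CPM in control and 17.3, 16.2 and 17.02 CPM with TGF-β (log2 fold change 3.46, SE 0.21, edgeR adjusted p = 0.000485). The treated values lay within a narrow band far above all controls. COL3A1, a fibrillar collagen of soft tissue, went from 3.26, 1.96 and 2.07 CPM to 10.5, 17.1 and 21.3 CPM (log2 fold change 2.75, SE 0.29, edgeR adjusted p = 0.00293). COL5A1, which nucleates fibrils of type I collagen, was at 17.6, 8.38 and 7.82 CPM in control and 63.5, 53.5 and 46.6 CPM with TGF-β (log2 fold change 2.28, SE 0.28, edgeR adjusted p = 0.00545). Control replicate 1 was the highest control for both, yet below every treated culture. COL16A1, a fibril-associated collagen, rose by 2.06 (adjusted p = 0.00233). All 4 kept the call. COL1A1, the main chain of type I collagen, stood at 6.22, 6.26 and 5.32 CPM in control and 6.71, 10.8 and 8.73 CPM with TGF-β and did not pass (adjusted p = 0.192). COL23A1, a transmembrane collagen outside both lists, fell from 6.27, 8.38 and 12.2 CPM to 1.64, 3.08 and 2.78 CPM (log2 fold change -1.83, SE 0.30, edgeR adjusted p = 0.0182) and lost the call without control replicate 2, TGF-β replicate 1, TGF-β replicate 2 or TGF-β replicate 3 (adjusted p up to 0.0897). Per length, as CPM per kilobase of exon (FPKM), mean levels with TGF-β were 4.87 for COL5A1, 2.397 for COL3A1, 2.14 for COL16A1, 1.52 for COL7A1 and 0.892 for COL1A1, so the largest fold belonged to a gene of modest level.

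The glycoproteins that link cells to this matrix reached higher levels per length, with mean FPKM under TGF-β of 53.7 for FN1, 67.1 for THBS1 and 21.98 for LTBP2. Of 38 tested matrix glycoproteins and proteoglycans, 6 rose and 2 fell (15.8% and 5.26%), and 24 had a positive fold change. FN1, fibronectin (chr2:215360440-215436172, minus strand), was at 258, 70.8 and 69.5 CPM in control and 1482, 737 and 568 CPM with TGF-β (log2 fold change 2.81, SE 0.55, edgeR adjusted p = 0.0365). Replicate 1 was the highest library of each group, with its control between the other controls and the treated cultures. THBS1, thrombospondin, which can activate latent TGF-β, went from 161, 117 and 63.98 CPM to 783, 530.2 and 531 CPM (log2 fold change 2.43, SE 0.30, edgeR adjusted p = 0.00586). LTBP2 and LTBP1 belong to the family of latent TGF-β binding proteins, though LTBP2 itself does not bind the latent cytokine. LTBP2 was at 43.6, 23.99 and 21.9 CPM in control and 215, 187 and 198 CPM with TGF-β (log2 fold change 2.74, SE 0.23, edgeR adjusted p = 0.00145), and LTBP1 rose by 1.63 (adjusted p = 0.0203). TGFBI, an adhesion protein named for its induction by TGF-β, rose from 4.38, 2.83 and 3.58 CPM to 15.7, 14.2 and 24.6 CPM (log2 fold change 2.33, SE 0.25, edgeR adjusted p = 0.00266). FBN1, the microfibril protein fibrillin, rose by 1.78 (adjusted p = 0.0122). EFEMP1, a fibulin, fell from 17.2, 17.2 and 18.0 CPM to 9.59, 9.43 and 8.195 CPM (log2 fold change -0.95, SE 0.12, edgeR adjusted p = 0.00524), and GPC6, a membrane-bound heparan sulfate proteoglycan, fell by 0.61 (adjusted p = 0.0273). LTBP2, TGFBI and EFEMP1 kept the call. THBS1 and FBN1 lost it without control replicate 2 (adjusted p 0.0577 and 0.0897). FN1 lost it without control replicate 2, control replicate 3, TGF-β replicate 1 or TGF-β replicate 2 (up to 0.188), LTBP1 without control replicate 2, TGF-β replicate 1 or TGF-β replicate 2 (up to 0.133) and GPC6 in every fit but the one without control replicate 1 (up to 0.143). THBS1 overlaps FSIP1 on the opposite strand.

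Laminins are the heterotrimers of basement membranes. Of 13 tested laminin and nidogen genes 3 rose and 1 fell, with a median log2 fold change of 0.38. LAMB3, a chain of epithelial basement membranes, was at 123, 69.7 and 82.9 CPM in control and 286, 194 and 194 CPM with TGF-β (log2 fold change 1.29, SE 0.22, edgeR adjusted p = 0.0216). LAMA3, an alpha chain of the same membranes, went from 309.8, 182 and 198 CPM to 475, 374 and 420.5 CPM (log2 fold change 0.88, SE 0.19, edgeR adjusted p = 0.0493). In both genes replicate 1 was the highest library of both groups. LAMA4, a laminin chain of vessels and mesenchyme, fell from 2.75, 4.03 and 6.83 CPM to 1.09, 1.64 and 1.299 CPM (log2 fold change -1.75, SE 0.36, edgeR adjusted p = 0.04301). None of these 3 kept the call: LAMB3 lost it without control replicate 2, control replicate 3, TGF-β replicate 1 or TGF-β replicate 2 (up to 0.121), and LAMA3 and LAMA4 in every fit but the one without control replicate 1 (up to 0.224 and 0.17).

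**Figure D3:**
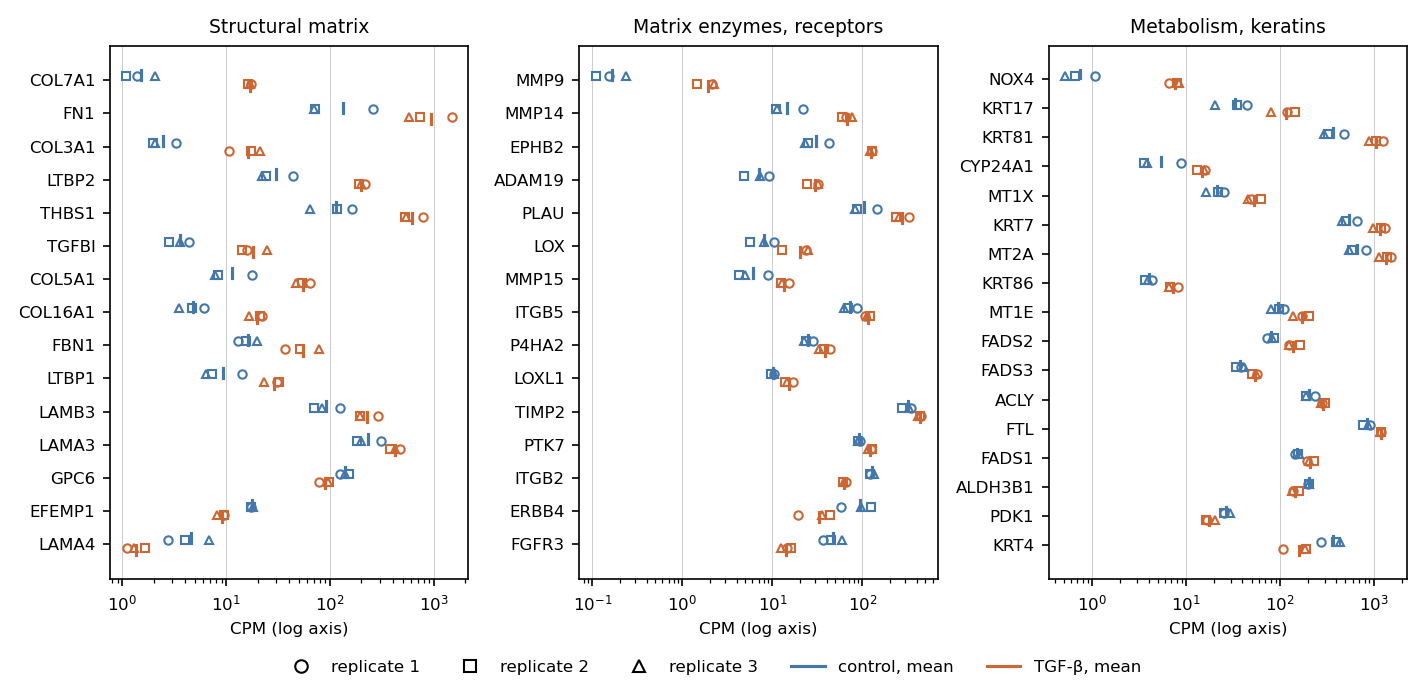
CPM on a log axis for the called members reported here of 4 lists of structural matrix genes (left), 4 lists of matrix enzymes, integrins and receptor tyrosine kinases (middle) and 4 lists of metabolic, redox and keratin genes (right), ordered by log2 fold change. Symbols are single libraries and vertical lines are group means. Most genes are higher with TGF-β (orange), with KRT4, FGFR3 and LAMA4 among those lower.

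In the lists of matrix proteases and inhibitors and of collagen enzymes, every gene called by edgeR with all 6 libraries was higher. DESeq2 also called 2 of the proteases and inhibitors lower, and edgeR called 1 of them lower without control replicate 1. The protease genes KLK8 and CPA4 and the inhibitor gene SERPINA1, which fell, are reported below outside these lists. Of 22 tested matrix proteases and inhibitors 6 rose and none fell (27.3% higher), with a median of 0.43. MMP14, the membrane-anchored collagenase (chr14:22836557-22849027, plus strand), was at 22.02, 10.9 and 11.2 CPM in control and 65.1, 59.8 and 76.7 CPM with TGF-β (log2 fold change 2.19, SE 0.25, edgeR adjusted p = 0.00375). ADAM19, a membrane metalloprotease, went from 9.18, 4.79 and 7.35 CPM to 31.8, 24.3 and 32.02 CPM (log2 fold change 2.04, SE 0.21, edgeR adjusted p = 0.00265). MMP9, a gelatinase, stayed low but moved far, from 0.153, 0.109 and 0.236 CPM to 2.14, 1.44 and 2.24 CPM (log2 fold change 3.48, SE 0.43, edgeR adjusted p = 0.00572). Its controls held 2 to 5 counts and its treated libraries 30 to 50. These 3 kept the call. PLAU, the urokinase that activates plasminogen, rose by 1.38 (adjusted p = 0.01501), MMP15 by 1.16 (0.0488) and the inhibitor TIMP2 by 0.46 (0.0496). PLAU lost the call without control replicate 2 or TGF-β replicate 1 (up to 0.11), and MMP15 and TIMP2 in every fit but the one without control replicate 1 (up to 0.207 and 0.198). PLAU overlaps C10orf55 on the opposite strand, which also rose (1.22, adjusted p = 0.0124), and C10orf55 lost the call without control replicate 2 or TGF-β replicate 1 (up to 0.0826). TIMP3, an inhibitor bound to matrix, was at 169, 277 and 333 CPM in control and 62.6, 121 and 132 CPM with TGF-β and missed the threshold (adjusted p = 0.0609). Of 17 enzymes of collagen processing and crosslinking 3 rose and none fell, and 15 had a positive fold change. LOX, which crosslinks collagen and elastin, rose by 1.34 (adjusted p = 0.0439), the prolyl hydroxylase subunit P4HA2 by 0.62 (0.0454) and LOXL1 by 0.58 (0.0493). LOX lost the call without control replicate 2, control replicate 3, TGF-β replicate 1 or TGF-β replicate 3 (up to 0.2), P4HA2 without control replicate 2, control replicate 3, TGF-β replicate 1 or TGF-β replicate 2 (up to 0.218) and LOXL1 in every fit but the one without control replicate 1 (up to 0.219).

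Integrins are the receptors through which cells hold matrix, and their list had 1 gene higher and 1 lower of 19 tested. ITGB5, a subunit that pairs with αV, rose from 86.6, 69.8 and 63.1 CPM to 107, 122 and 113 CPM (log2 fold change 0.64, SE 0.12, edgeR adjusted p = 0.0287) and lost the call in every fit but the one without control replicate 1 (up to 0.166). ITGB2, best known from leukocytes, fell from 122, 121 and 135 CPM to 64.95, 60.6 and 62.9 CPM (log2 fold change -1.01, SE 0.08, edgeR adjusted p = 0.00112). The values were tight in both groups and the call was kept. The leukocyte marker PTPRC was at 36 to 51 counts in all 6 libraries, and a part of leukocytes in this fall was not tested. ITGB2 overlaps the antisense gene ITGB2-AS1, which fell too (-1.16, adjusted p = 0.0154) and lost the call without control replicate 2, TGF-β replicate 1 or TGF-β replicate 2 (up to 0.0837), and reads of the pair cannot be told apart if counting ignored strand.

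The pathway's own receptors and SMADs were tested next. Of 18 tested receptors and SMADs of both branches none rose and 1 fell, with a median of -0.04. TGFBR1 was at 25.3, 23.6 and 23.5 CPM in control and 19.9, 22.03 and 21.4 CPM with TGF-β (adjusted p = 0.342). TGFBR2 was at 66.3, 42.8 and 39.2 CPM and 68.8, 57.9 and 49.5 CPM with overlapping groups (0.576). The log2 fold changes of SMAD2, SMAD3 and SMAD4 were -0.20, -0.13 and -0.11, with adjusted p of 0.232, 0.7496 and 0.458. Of 17 feedback and target genes 2 rose and none fell. PMEPA1, a membrane protein that holds SMADs back, was at 166, 63.8 and 52.3 CPM in control and 559, 429.6 and 422 CPM with TGF-β (log2 fold change 2.32, SE 0.38, edgeR adjusted p = 0.0182), and control replicate 1 lay well above the other controls. It lost the call without control replicate 2, TGF-β replicate 1 or TGF-β replicate 2 (up to 0.122). The noncoding gene NKILA, which overlaps PMEPA1 on the opposite strand, rose as well (2.08, adjusted p = 0.0175) and lost the call without the same libraries (up to 0.122). CDKN1A, the cyclin-dependent kinase inhibitor p21, rose from 26.5, 30.2 and 25.02 CPM to 52.5, 56.3 and 53.8 CPM (log2 fold change 0.99, SE 0.09, edgeR adjusted p = 0.002001) and kept the call. SMAD7, the inhibitory SMAD of this branch, was at 39.1, 53.3 and 31.3 CPM in control and 49.4, 59.7 and 44.7 CPM with TGF-β, with overlapping groups (adjusted p = 0.432). SKIL, a SMAD co-repressor, was at 345, 249.7 and 155 CPM and 548, 568 and 465 CPM and just missed the threshold (0.0546).

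Among 19 tested ligands and antagonists of the family, 2 rose and 1 fell. TGFB2 was low throughout, at 0.306, 0.163 and 0.283 CPM in control and 1.64, 1.25 and 1.84 CPM with TGF-β (log2 fold change 2.61, SE 0.40, edgeR adjusted p = 0.0146). FSTL3, which binds and blocks activins, rose from 5.86, 3.97 and 5.7 CPM to 12.03, 13.04 and 13.4 CPM (log2 fold change 1.31, SE 0.17, edgeR adjusted p = 0.00719). BMP7, a BMP ligand, fell from 133, 219 and 223 CPM to 42.5, 89.3 and 77.1 CPM (log2 fold change -1.46, SE 0.27, edgeR adjusted p = 0.0301). Replicate 1 was the lowest library of each group for BMP7. FSTL3 kept the call, TGFB2 lost it without control replicate 2, TGF-β replicate 1 or TGF-β replicate 3 (up to 0.0882) and BMP7 in every fit but the one without control replicate 1 (up to 0.156). TGFB1, the most widely expressed ligand, was at 32.1, 30.9 and 34.6 CPM in control and 33.1, 32.9 and 36.2 CPM with TGF-β (adjusted p = 0.766).

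**Figure D4:**
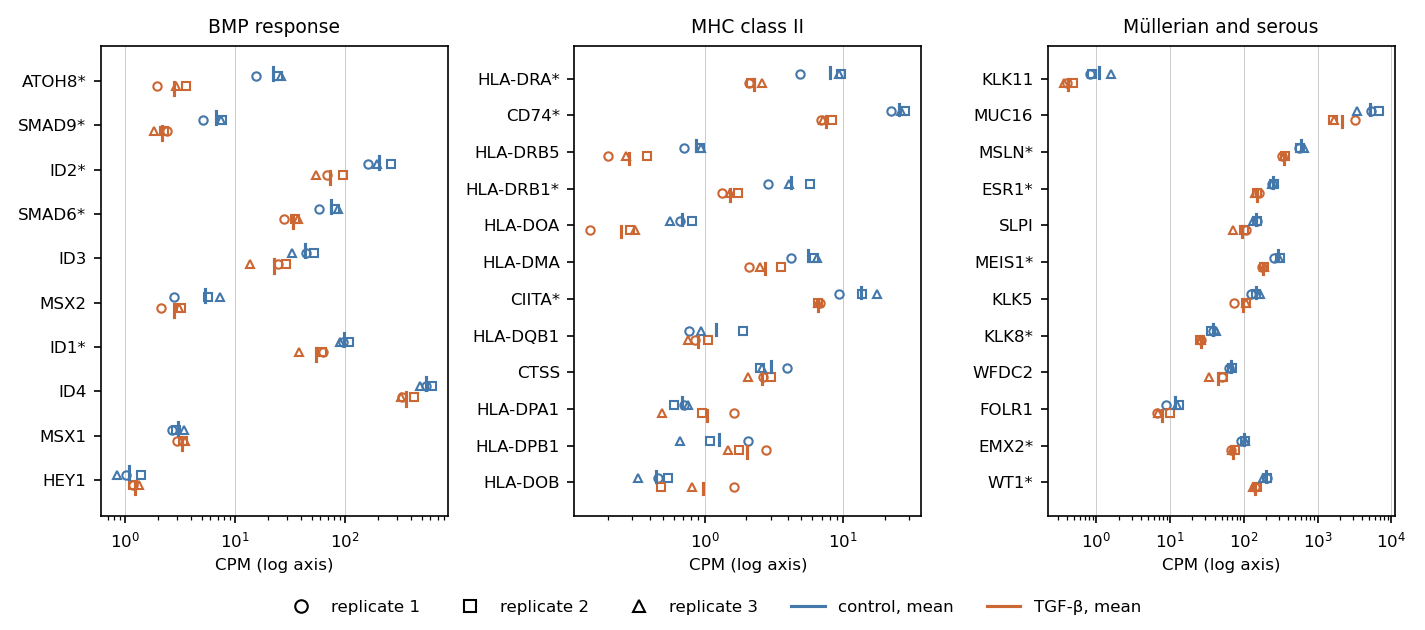
CPM on a log axis for the tested BMP response genes (left), the tested MHC class II genes (middle) and the 12 Müllerian and serous genes with the lowest fold changes (right). Asterisks mark an adjusted p under 0.05, symbols are single libraries and lines are group means. In each panel the upper genes are lower with TGF-β (orange) in all 3 cultures.

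BMP response genes went the other way. Of 10 tested 5 fell and none rose (50% lower, against 0.991% of all genes), and the median was -0.93. ATOH8, a bHLH transcription factor induced by BMP signaling (chr2:85751344-85788066, plus strand), dropped from 15.5, 24.5 and 26.6 CPM in control to 1.99, 3.61 and 2.91 CPM with TGF-β (log2 fold change -2.97, SE 0.26, edgeR adjusted p = 0.00145). ID2, an inhibitor of bHLH factors, went from 162, 262 and 196 CPM to 68.8, 95.7 and 55.4 CPM (log2 fold change -1.50, SE 0.22, edgeR adjusted p = 0.01197). SMAD6, the inhibitory SMAD of the BMP branch, went from 58.6, 81.02 and 87.01 CPM to 28.3, 35.2 and 37.8 CPM (log2 fold change -1.16, SE 0.16, edgeR adjusted p = 0.00881). As in every called gene, the groups did not overlap. SMAD9, a signal-carrying SMAD of the BMP branch and the 1 member of the receptor and SMAD list that fell, changed by -1.64 (adjusted p = 0.00965), and ID1 by -0.86 (0.0421). ID4 was at 551, 621 and 483 CPM in control and 335, 429 and 325 CPM with TGF-β and missed the threshold (0.0512), as did ID3 (-0.94, adjusted p = 0.109). ATOH8 kept the call. SMAD6 and SMAD9 lost it without control replicate 2 (adjusted p 0.0612 and 0.0622), ID2 without control replicate 2 or TGF-β replicate 1 (up to 0.0611) and ID1 without control replicate 2, control replicate 3, TGF-β replicate 1 or TGF-β replicate 2 (up to 0.208). Without control replicate 2 the list had 1 gene lower, without control replicate 1 it had 6, and DESeq2 called 7. ID2-AS1, annotated across ID2 on the opposite strand, fell as well (-1.32, adjusted p = 0.0182) and lost the call in every fit but the one without control replicate 1 (up to 0.11).

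Promoter sequences of 3 genes with large changes that kept the call are given here to show what the windows around these members hold: COL7A1 from the matrix group, ATOH8 from the BMP group and CD74 from MHC class II. Each is the 250 bases before the first start that RefSeq lists for the gene in GRCh38.p14, written 5′ to 3′ on the gene's strand. Capitals mark matches on either strand to the SMAD box CAGAC (reverse GTCTG), to the AP-1 site TGACTCA (reverse TGAGTCA) or to CCAAT (reverse ATTGG), the box bound by NF-Y. The windows are chr3:48595330-48595579 on the minus strand, chr2:85753741-85753990 on the plus strand and chr5:150412911-150413160 on the minus strand. By the gene spans printed in this report, the ATOH8 window lies inside the gene and the CD74 window overlaps the start of CD74. Only the COL7A1 window lies wholly before the printed span.
COL7A1: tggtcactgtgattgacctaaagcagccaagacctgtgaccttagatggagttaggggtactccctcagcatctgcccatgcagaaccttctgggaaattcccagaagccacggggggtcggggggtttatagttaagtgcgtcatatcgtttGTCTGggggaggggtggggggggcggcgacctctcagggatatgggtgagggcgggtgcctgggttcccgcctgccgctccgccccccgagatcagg
ATOH8: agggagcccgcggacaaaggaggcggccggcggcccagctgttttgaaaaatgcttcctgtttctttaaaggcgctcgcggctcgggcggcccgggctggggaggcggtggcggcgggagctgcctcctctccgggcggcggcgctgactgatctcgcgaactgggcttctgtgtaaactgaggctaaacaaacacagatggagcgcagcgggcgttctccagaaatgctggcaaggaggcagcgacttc
CD74: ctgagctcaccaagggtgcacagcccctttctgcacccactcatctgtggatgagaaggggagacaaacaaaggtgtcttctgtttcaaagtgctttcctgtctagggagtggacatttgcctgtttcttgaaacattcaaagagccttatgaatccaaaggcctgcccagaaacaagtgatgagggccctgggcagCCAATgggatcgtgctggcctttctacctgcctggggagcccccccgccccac
COL7A1 had 1 SMAD box match 97 bases before its start, CD74 had 1 CCAAT match 53 bases before its start, and these letters were not in the ATOH8 window. A SMAD box was in 37.6% of 181 promoters of higher genes, 27.5% of 138 promoters of lower genes, 36.2% of 11571 promoters of tested genes and 37.8% of all 27305 in the table. For the AP-1 site the shares were 4.97%, 5.07%, 2.79% and 4.16%, and for CCAAT 27.1%, 35.5%, 34.3% and 33.0%, in the same order. These shares are descriptions of the letters and were not tested.

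Receptors outside the family changed gene by gene. Of 39 receptor tyrosine kinases 2 rose and 2 fell. EPHB2, a receptor for ephrin-B ligands, rose from 42.9, 25.1 and 23.1 CPM to 127, 129 and 121 CPM (log2 fold change 2.05, SE 0.20, edgeR adjusted p = 0.00233). FGFR3, a fibroblast growth factor receptor, fell from 36.6, 44.5 and 58.7 CPM to 14.5, 15.97 and 12.4 CPM (log2 fold change -1.71, SE 0.18, edgeR adjusted p = 0.00233). Both kept the call. ERBB4, the neuregulin receptor, fell by 1.503 (adjusted p = 0.0496) and PTK7, a pseudokinase of Wnt signaling, rose by 0.42 (0.0277). ERBB4 lost the call in every fit but the one without control replicate 1 (up to 0.224) and PTK7 without control replicate 2, control replicate 3, TGF-β replicate 1 or TGF-β replicate 2 (up to 0.151). Of 38 cytokine and TNF family receptors 1 passed, TNFRSF21 (0.54, adjusted p = 0.0175), a share of 2.63% beside 2.26% of all genes. Of 39 Wnt and Notch receptors and ligands 1 rose, WNT11 (0.83, adjusted p = 0.0373), and 1 fell, LGR4 (-0.65, adjusted p = 0.0229). TNFRSF21 lost the call without control replicate 2, control replicate 3, TGF-β replicate 1 or TGF-β replicate 3 (up to 0.11), WNT11 without control replicate 2, control replicate 3, TGF-β replicate 2 or TGF-β replicate 3 (up to 0.185) and LGR4 without control replicate 2, TGF-β replicate 1, TGF-β replicate 2 or TGF-β replicate 3 (up to 0.135).

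Nuclear receptors had 3 genes higher and 1 lower of 35 tested. VDR, the vitamin D receptor, was at 20.4, 16.3 and 20.1 CPM in control and 42.3, 34.6 and 36.6 CPM with TGF-β (log2 fold change 1.00, SE 0.12, edgeR adjusted p = 0.005196). CYP24A1, the vitamin D hydroxylase that VDR induces, went from 8.82, 3.59 and 3.86 CPM to 16.1, 13.1 and 15.4 CPM (log2 fold change 1.45, SE 0.30, edgeR adjusted p = 0.0454). ESR1, the estrogen receptor, fell from 238, 257 and 242 CPM to 161, 151 and 143 CPM (log2 fold change -0.69, SE 0.08, edgeR adjusted p = 0.004102). THRA, a thyroid hormone receptor, rose by 0.61 (adjusted p = 0.0278) and PPARD, a fatty acid-sensing receptor, by 0.61 (0.0431). VDR and ESR1 kept the call. CYP24A1, THRA and PPARD lost it in every fit but the one without control replicate 1 (up to 0.202, 0.144 and 0.216).

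Among the metabolic lists, 13.8% of fatty acid genes (4 of 29) and 3.85% of glycolysis genes (1 of 26) were called, beside 2.26% of all genes. Without control replicate 2 neither list had a called gene, and a difference between the lists was not tested. At 2.26%, a list of about this size can hold no called gene without differing from the rest. In glycolysis and glucose transport none of 26 rose and 1 fell, PDK1 (-0.58, adjusted p = 0.0404), the kinase that holds pyruvate dehydrogenase off, and DESeq2 called 2 higher and 1 lower. GAPDH, an enzyme of glycolysis, was at 3739, 3685 and 3821 CPM in control and 3994, 4256 and 3614 CPM with TGF-β. None of 28 cholesterol genes passed (6 at an unadjusted p under 0.05, 2 called by DESeq2). Of 29 serine, amino acid and ATF4 stress genes none passed either (10 unadjusted, 1 by DESeq2), nor did any of 15 nucleotide and one-carbon genes (1 unadjusted, 0 by DESeq2). Of 29 fatty acid genes 4 rose and none fell (13.8% higher). FADS2, a desaturase of polyunsaturated fatty acid synthesis, rose from 73.9, 87.5 and 82.6 CPM to 126, 163 and 126 CPM (log2 fold change 0.77, SE 0.12, edgeR adjusted p = 0.0148). The neighboring desaturase genes FADS1 and FADS3 rose by 0.46 and 0.53 (adjusted p = 0.0336 and 0.0315). Exons of FADS1 and FADS2 overlap on opposite strands, so the 2 counts may not be separate. ACLY, which makes cytosolic acetyl-CoA for lipid synthesis, rose by 0.49 (0.0461). FASN, fatty acid synthase, was at 1509.9, 1535 and 1573 CPM and 1739.8, 1879 and 1844 CPM and did not pass (0.193). FADS2 lost the call without control replicate 2 (adjusted p = 0.0639), FADS3 without control replicate 2, TGF-β replicate 1, TGF-β replicate 2 or TGF-β replicate 3 (up to 0.143), PDK1 without control replicate 2, control replicate 3, TGF-β replicate 1 or TGF-β replicate 2 (up to 0.185), and FADS1 and ACLY in every fit but the one without control replicate 1 (up to 0.144 and 0.226).

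The redox, iron and detoxification list had 6 of 46 genes higher and 1 lower, CYP24A1 among the higher. NOX4, the NADPH oxidase that releases hydrogen peroxide (chr11:89324356-89498187, minus strand), was at 1.07, 0.653 and 0.518 CPM in control and 6.66, 8.08 and 8.42 CPM with TGF-β (log2 fold change 3.36, SE 0.28, edgeR adjusted p = 0.00145). No treated culture came near the controls, and the call was kept. Metallothioneins are small proteins that bind zinc and copper, and 3 of them rose. MT2A went from 831, 586 and 552 CPM to 1517, 1395 and 1137 CPM (log2 fold change 1.04, SE 0.17, edgeR adjusted p = 0.0175), while MT1X and MT1E rose by 1.31 and 0.84 (adjusted p = 0.00721 and 0.0301). These copies are near-identical, and the authors' counting could have split or dropped reads between them. FTL, the ferritin light chain that stores iron, rose by 0.48 (0.0301), and the aldehyde dehydrogenase gene ALDH3B1 fell by 0.50 (0.0205). MT1X lost the call without control replicate 2 (adjusted p = 0.058), MT2A without control replicate 2, TGF-β replicate 1 or TGF-β replicate 2 (up to 0.122), MT1E without control replicate 2, control replicate 3, TGF-β replicate 1 or TGF-β replicate 2 (up to 0.151), ALDH3B1 without control replicate 2, control replicate 3, TGF-β replicate 1 or TGF-β replicate 3 (up to 0.114) and FTL in every fit but the one without control replicate 1 (up to 0.148). Of 12 prostaglandin genes 1 fell, PTGS1, the constitutive cyclooxygenase, from 16.8, 18.7 and 17.4 CPM to 5.71, 7.6 and 5.37 CPM (log2 fold change -1.50, SE 0.15, edgeR adjusted p = 0.00233), and it kept the call. PTGS2, the inducible cyclooxygenase, was at 2.75, 1.904 and 1.27 CPM and 1.49, 1.97 and 0.9404 CPM (adjusted p = 0.628).

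MHC class II molecules show peptides to CD4+ T cells and are made by some epithelial cells as well as by leukocytes. Of 12 tested genes of this pathway 4 fell and none rose (33.3% lower), with a median of -1.04. CD74, the invariant chain that guides class II molecules to endosomes (chr5:150401637-150412929, minus strand), fell from 21.97, 28.1 and 26.3 CPM in control to 6.96, 8.27 and 7.17 CPM with TGF-β (log2 fold change -1.77, SE 0.13, edgeR adjusted p = 0.00112). HLA-DRA went from 4.89, 9.69 and 9.33 CPM to 2.09, 2.16 and 2.597 CPM (log2 fold change -1.80, SE 0.28, edgeR adjusted p = 0.0149), and its partner chain HLA-DRB1 from 2.85, 5.77 and 4.05 CPM to 1.34, 1.73 and 1.52 CPM (log2 fold change -1.46, SE 0.30, edgeR adjusted p = 0.0439). CIITA, the coactivator that switches the pathway on, went from 9.33, 13.6 and 17.7 CPM to 6.76, 6.54 and 6.54 CPM (log2 fold change -1.03, SE 0.21, edgeR adjusted p = 0.0445), with the 3 treated values almost equal. As in every called gene the groups did not overlap, and control replicate 1 was the lowest control in all 4 genes. CD74 kept the call, HLA-DRA lost it without control replicate 2, TGF-β replicate 1 or TGF-β replicate 2 (up to 0.0894), and CIITA and HLA-DRB1 in every fit but the one without control replicate 1 (up to 0.186 and 0.186). Summed leukocyte markers, given above, overlapped between the groups, and a part of leukocytes in these results was not tested. HLA-DR genes are polymorphic and have close copies, so their counts are uncertain.

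In the other immune lists 0% to 4.44% of tested genes were called by edgeR, beside 2.26% of all genes. None of 17 MHC class I genes passed, as given above. Of 45 interferon-stimulated genes none rose, 2 fell and 8 had a positive fold change, with a median of -0.31. An unadjusted p under 0.05 was reached by 17 of the 45, beside 3175 of all 19064 genes. DESeq2 called 9 lower, and edgeR called 5 lower without control replicate 1 and none without control replicate 2. The 2 that fell were IFI6 (-1.01, adjusted p = 0.0413) and BST2, the surface protein tetherin (-1.48, adjusted p = 0.0386), and both lost the call in every fit but the one without control replicate 1 (up to 0.166 and 0.159). ISG15, a ubiquitin-like protein of the interferon response, was at 32.01, 33.4 and 30.1 CPM and 34.7, 35.8 and 28.6 CPM. None of 28 chemokines and interleukins passed (6 at an unadjusted p under 0.05, 2 called by DESeq2), although 23 had a positive fold change. None of 17 NF-κB pathway genes passed (6 unadjusted, 3 by DESeq2). Of 34 checkpoint and complement genes 1 fell, CLU, the chaperone clusterin, from 222, 257 and 311 CPM to 94.7, 110.0 and 102 CPM (log2 fold change -1.37, SE 0.13, edgeR adjusted p = 0.00174), and it kept the call. Without control replicate 1 this list had 4 genes higher and 2 lower, and 14 of its 34 genes had an unadjusted p under 0.05 with all 6 libraries. Complement C3 was at 54.8, 33.2 and 25.6 CPM in control and 22.4, 10.5 and 10.03 CPM with TGF-β and did not pass (adjusted p = 0.0794).

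Lineage genes of the ovarian line were lower in part. Of 21 tested Müllerian and serous genes 6 fell and none rose (28.6% lower), with a median of -0.49. DESeq2 called 9 lower and 1 higher. With edgeR the list had 7 genes lower and 1 higher without control replicate 1, and 2 lower without control replicate 2. MSLN, mesothelin, a surface antigen of serous carcinoma (chr16:760762-768865, plus strand), fell from 561, 575 and 646 CPM to 335, 359 and 349 CPM (log2 fold change -0.77, SE 0.09, edgeR adjusted p = 0.00375). MEIS1, a homeobox factor, went from 255, 313 and 298 CPM to 176, 191 and 187 CPM (log2 fold change -0.64, SE 0.09, edgeR adjusted p = 0.01197). WT1, the transcription factor that marks serous carcinoma, went from 207, 204 and 180.1 CPM to 142, 149.7 and 135 CPM (log2 fold change -0.47, SE 0.08, edgeR adjusted p = 0.0274). EMX2, a homeobox factor of the developing reproductive tract, and the kallikrein KLK8 fell as well (log2 fold changes -0.49 and -0.57, adjusted p = 0.0235 and 0.0154), and ESR1 is the sixth. Each of the 6 changes was under 2-fold, and as in every called gene the groups did not overlap. MUC16, the gene of the CA125 antigen, was at 5350.4, 6793 and 3439.8 CPM in control and 3186, 1614 and 1674 CPM with TGF-β and missed the threshold (log2 fold change -1.27, SE 0.30, adjusted p = 0.0701). PAX8, given above, had a log2 fold change of 0.03. Of the 8 serous carcinoma markers listed above 2 were called, in opposite directions: WT1 lower and KRT7 higher (1.10, edgeR adjusted p = 0.0114). KRT7 is described with the keratins. EPCAM did not pass (0.31, edgeR adjusted p = 0.177). ESR1 and MSLN kept the call, MEIS1 lost it without control replicate 2, TGF-β replicate 1 or TGF-β replicate 2 (up to 0.0663), WT1 without control replicate 2, TGF-β replicate 1, TGF-β replicate 2 or TGF-β replicate 3 (up to 0.15), and EMX2 and KLK8 in every fit but the one without control replicate 1 (up to 0.13 and 0.0977). EMX2 overlaps EMX2OS on the opposite strand, which fell too (-0.58, adjusted p = 0.0201) and lost the call in the same 5 fits (up to 0.114).

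Of 11 mesothelial genes 2 fell and 1 rose. UPK3B, a plaque protein of mesothelium and urothelium, fell from 154, 180.3 and 174 CPM to 50.1, 64.7 and 69.5 CPM (log2 fold change -1.46, SE 0.12, edgeR adjusted p = 0.00145) and kept the call. CPA4, a carboxypeptidase, changed by -1.55 (adjusted p = 0.00721) and lost the call without control replicate 2 (0.0531). The 1 that rose, CDH2, is described with the mesenchymal genes. MUC6, a secreted gel-forming mucin and the only called gene of 6 tested mucin and secretory genes, fell from 16.8, 44.8 and 31.6 CPM to 4.82, 9.86 and 7.61 CPM (log2 fold change -2.06, SE 0.35, edgeR adjusted p = 0.0218). It lost the call without control replicate 2, TGF-β replicate 1, TGF-β replicate 2 or TGF-β replicate 3 (up to 0.108). None of 14 ciliated cell genes passed (2 at an unadjusted p under 0.05, 0 by DESeq2).

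Of 45 epithelial junction and identity genes 2 fell and none rose in the edgeR test of all 6 libraries. DESeq2 called 4 higher and 4 lower, and without control replicate 1 edgeR called 8 higher and 4 lower. PARD6B, a polarity protein, fell from 156, 163 and 147 CPM to 80.9, 90.5 and 92.97 CPM (log2 fold change -0.82, SE 0.08, edgeR adjusted p = 0.00233) and kept the call, and TJP3, a tight junction scaffold, fell by 0.65 (adjusted p = 0.0267), lost in every fit but the one without control replicate 1 (up to 0.12). CDH1, E-cadherin, was at 216, 182 and 149 CPM in control and 207, 203 and 155 CPM with TGF-β, with overlapping groups (0.04, adjusted p = 0.916). EPCAM was at 152, 119.5 and 128 CPM and 171, 171 and 154 CPM (0.31, adjusted p = 0.177). Keratins, the filaments of epithelial cells, had 4 of 16 higher and 1 lower, with a median of 0.55. KRT7, the keratin of simple ductal epithelium, rose from 671, 504 and 463 CPM to 1326, 1209.6 and 980.4 CPM (log2 fold change 1.101, SE 0.16, edgeR adjusted p = 0.0114). KRT17, a keratin of basal and wounded epithelium, rose from 44.9, 35.4 and 20.4 CPM to 120.1, 144 and 80.9 CPM (log2 fold change 1.78, SE 0.28, edgeR adjusted p = 0.0162). KRT81, a hair-type keratin, rose from 484, 324 and 295 CPM to 1242, 1060.0 and 881 CPM (log2 fold change 1.53, SE 0.19, edgeR adjusted p = 0.00651), and the close copy KRT86 by 0.85 (0.0413). KRT4, a keratin of moist stratified epithelium, fell from 278, 399 and 439 CPM to 109, 189.9 and 186 CPM (log2 fold change -1.20, SE 0.23, edgeR adjusted p = 0.0303). None of these 5 kept the call. KRT81 lost it without control replicate 2 (adjusted p = 0.0597), KRT7 without control replicate 2 or TGF-β replicate 2 (up to 0.0897), KRT17 without control replicate 2, TGF-β replicate 1 or TGF-β replicate 2 (up to 0.11), and KRT86 and KRT4 in every fit but the one without control replicate 1 (up to 0.189 and 0.154). KRT8 and KRT18, the pair of simple epithelium, had log2 fold changes of 0.14 and 0.27 and did not pass.

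Of 17 EMT transcription factors 1 passed, and DESeq2 called 3 higher and 1 lower. SOX4, an HMG-box factor that TGF-β is known to induce, rose from 94.2, 67.3 and 68.5 CPM to 195, 193 and 176 CPM (log2 fold change 1.29, SE 0.13, edgeR adjusted p = 0.00233) and kept the call. SNAI2 was at 0.918, 0.218 and 0.707 CPM in control and 2.48, 2.21 and 2.42 CPM with TGF-β. Its groups did not overlap and it just missed the threshold (log2 fold change 1.93, SE 0.42, adjusted p = 0.0539). SNAI1, ZEB1 and ZEB2 had log2 fold changes of -0.04, 0.20 and -0.09, with overlapping groups and adjusted p of 0.953, 0.886 and 0.903. ZEB1 and ZEB2 were at most at 1.78 and 2.58 CPM in any library.

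The mesenchymal and contractile list had 9 of 35 genes higher (25.7%), 1 lower and a median of 0.42. FLNC, the actin-crosslinking filamin of muscle, rose from 203, 153 and 148 CPM to 513, 505 and 427 CPM (log2 fold change 1.52, SE 0.13, edgeR adjusted p = 0.00149). TAGLN, the smooth muscle protein transgelin, rose from 11.7, 11.4 and 12.1 CPM to 25.1, 31.4 and 32.3 CPM (log2 fold change 1.34, SE 0.12, edgeR adjusted p = 0.00158). TUBA4A, an alpha tubulin, rose from 21.0, 21.1 and 22.05 CPM to 51.98, 59.9 and 57.8 CPM (log2 fold change 1.40, SE 0.09, edgeR adjusted p = 0.000485), the narrowest groups of these genes. PALLD, an actin-bundling protein, rose by 0.75 (adjusted p = 0.005196), and these 4 kept the call. CDH2, N-cadherin, rose from 2.804, 1.31 and 1.51 CPM to 8.85, 5.53 and 6.05 CPM (log2 fold change 1.86, SE 0.32, edgeR adjusted p = 0.0216). MARCKS, PDLIM7, MYLK and CALD1, which bind actin or drive its contraction, rose by 1.86, 0.84, 0.87 and 0.42 (adjusted p = 0.0195, 0.00589, 0.0182 and 0.0496). TNS3, a focal adhesion protein, fell by 0.64 (0.0365). PDLIM7 lost the call without control replicate 2 (adjusted p = 0.0553), CDH2 without control replicate 2, control replicate 3, TGF-β replicate 1 or TGF-β replicate 2 (up to 0.122), MARCKS and MYLK without control replicate 2, TGF-β replicate 1 or TGF-β replicate 2 (up to 0.128 and 0.129), and CALD1 and TNS3 in every fit but the one without control replicate 1 (up to 0.228 and 0.171). VIM, vimentin, was at 20.4, 5.82 and 5.79 CPM in control and 52.98, 23.1 and 19.1 CPM with TGF-β, and its groups overlapped, with control replicate 1 above TGF-β replicate 3 (log2 fold change 1.57, SE 0.52, adjusted p = 0.179). Without control replicate 1 VIM passed the test (log2 fold change 2.46). ACTA2, smooth muscle actin, was at 2.04, 4.35 and 2.12 CPM and 2.14, 2.79 and 1.39 CPM (0.623). The summed fibroblast markers, 0.653 to 0.918 CPM in control and 1.43 to 2.02 CPM with TGF-β, moved in the same direction, and their part in these results was not tested. Of the 5 markers, PDGFRB had 5, 9 and 8 counts in control and 20, 27 and 19 counts with TGF-β, with groups that did not overlap (unadjusted p = 0.00539, edgeR adjusted p = 0.11). LUM had 2 to 7 and 6 to 11 counts and FAP 0 to 3 and 2 to 6 counts, while DCN and PDGFRA had at most 4 counts in any library.

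Neuronal and adhesion genes changed in both directions, with 2 of 32 higher and 1 lower. NEGR1, a neuronal adhesion molecule, rose from 3.67, 1.14 and 1.65 CPM to 13.8, 11.1 and 11.4 CPM (log2 fold change 2.49, SE 0.34, edgeR adjusted p = 0.00896). SEMA3C and SEMA3A are secreted guidance cues, and they moved apart: SEMA3C rose by 1.39 (adjusted p = 0.0145) and SEMA3A fell from 33.5, 42.1 and 43.7 CPM to 14.7, 18.9 and 16.03 CPM (log2 fold change -1.26, SE 0.14, edgeR adjusted p = 0.002898). NEGR1 and SEMA3A kept the call and SEMA3C lost it without control replicate 2 or TGF-β replicate 1 (up to 0.0605). Outside the list, DPYSL3, a protein of growing axons, rose from 18.7, 7.78 and 7.07 CPM to 76.2, 58.2 and 50.8 CPM (log2 fold change 2.47, SE 0.33, edgeR adjusted p = 0.00836) and lost the call without control replicate 2 (0.0641). LRRN1, a leucine-rich repeat membrane protein, rose by 2.13 (adjusted p = 0.00375) and kept it.

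None of 30 proliferation genes passed, and MKI67, the marker of cycling cells, was at 219.7, 207 and 165 CPM in control and 185, 176 and 144 CPM with TGF-β (adjusted p = 0.424). Of 21 cell cycle inhibitors and survival genes 3 rose and 1 fell. Besides CDKN1A, BMF and BAX, which promote cell death, rose by 1.32 and 0.43 (adjusted p = 0.0348 and 0.0303), and BID, also pro-apoptotic, fell by 0.47 (0.0318). BMF lost the call without control replicate 2, control replicate 3, TGF-β replicate 1 or TGF-β replicate 2 (up to 0.196), and BAX and BID in every fit but the one without control replicate 1 (up to 0.143 and 0.149).

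The remaining genes with the highest or lowest fold changes belonged to no list. STRA6, the membrane receptor that takes up vitamin A, rose from 7.14, 6.53 and 4.66 CPM to 30.8, 31.3 and 24.3 CPM (log2 fold change 2.24, SE 0.17, edgeR adjusted p = 0.00112), and the organic cation carrier SLC22A3 by 2.12 (adjusted p = 0.0178). ACE, angiotensin-converting enzyme, fell from 16.7, 25.6 and 27.2 CPM to 4.08, 4.57 and 3.0 CPM (log2 fold change -2.58, SE 0.22, edgeR adjusted p = 0.00145). ALPI, intestinal alkaline phosphatase, fell from 2.45, 5.93 and 7.58 CPM to 0.398, 0.722 and 0.672 CPM (log2 fold change -3.14, SE 0.45, edgeR adjusted p = 0.0116). KCNN3, a calcium-activated potassium channel, and TMEM229B, a membrane protein, also fell (log2 fold changes -2.35 and -1.86, adjusted p = 0.004802 and 0.00196). CAMK2B, a calcium-dependent kinase, changed by -2.46 (0.0439), PRUNE2 by -2.16 (0.0184) and NMNAT2, an enzyme of NAD synthesis, by -1.85 (0.00683). PPP1R16B, a phosphatase subunit, changed by -1.70 (0.0205) and SSX1, a cancer-testis antigen, by -1.64 (0.0301). STRA6, ACE, KCNN3 and TMEM229B kept the call. NMNAT2 lost it without control replicate 2 (0.0512), SLC22A3, ALPI and PPP1R16B without control replicate 2, TGF-β replicate 1 or TGF-β replicate 2 (up to 0.12, 0.066 and 0.0992), PRUNE2 without control replicate 2, TGF-β replicate 1 or TGF-β replicate 3 (up to 0.11), SSX1 without control replicate 2, TGF-β replicate 1, TGF-β replicate 2 or TGF-β replicate 3 (up to 0.15) and CAMK2B in every fit but the one without control replicate 1 (up to 0.184). The alkaline phosphatase genes have close copies, and PRUNE2 overlaps PCA3 on the opposite strand, so both counts are uncertain.

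**Figure D5:**
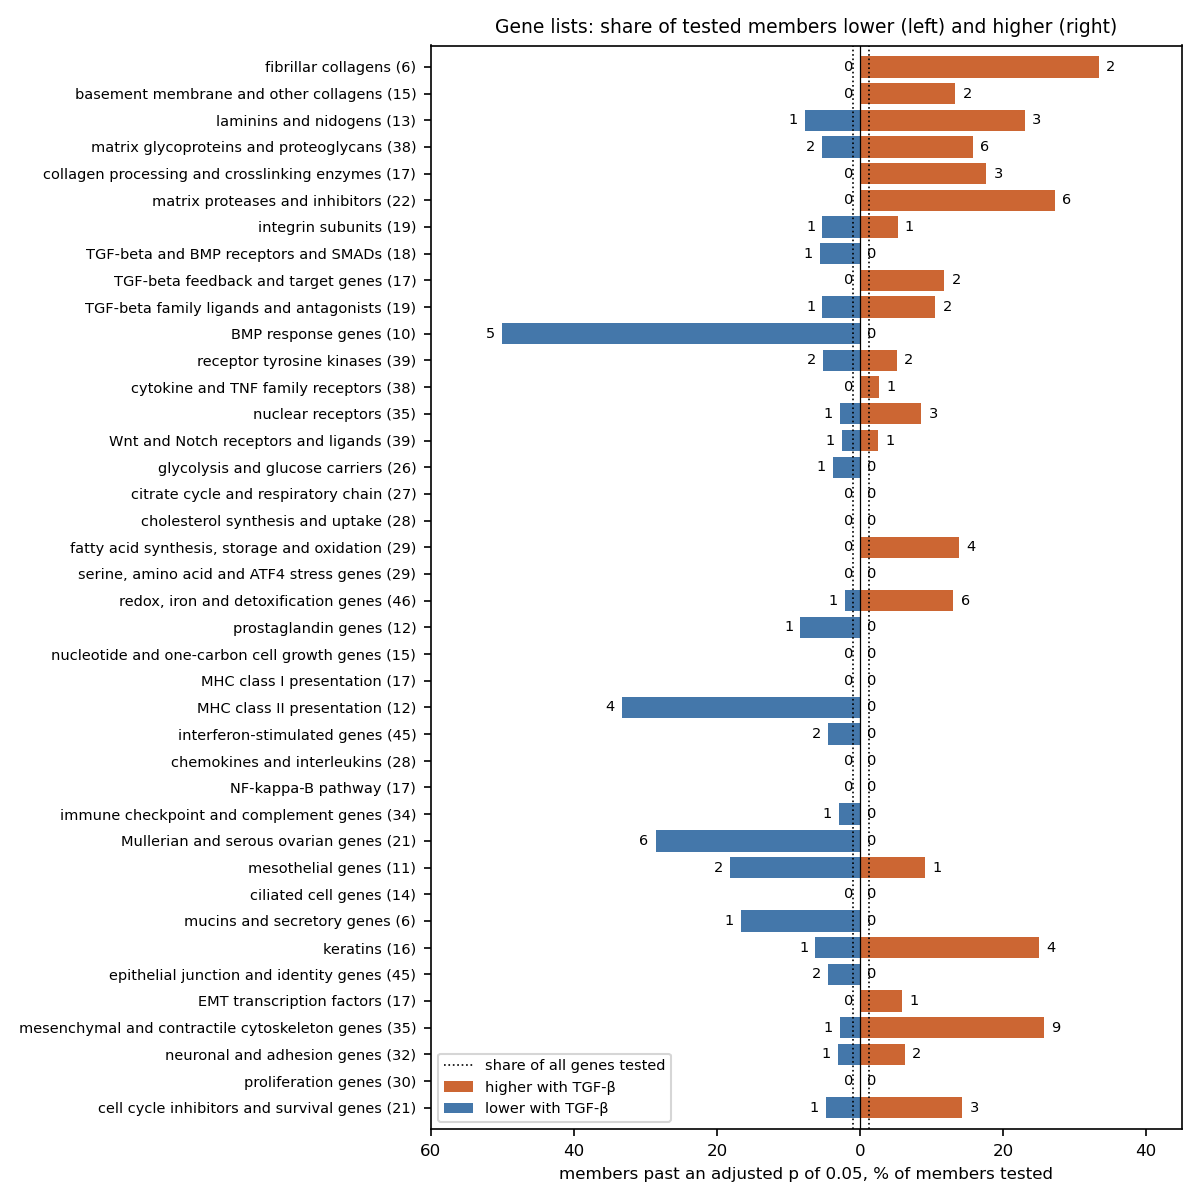
Share of tested members past an adjusted p of 0.05 for each of 40 gene lists (horizontal axis, %), lower with TGF-β to the left (blue) and higher to the right (orange), with the number of genes at each bar and the number tested beside each name. Dotted lines mark the shares over all genes tested, 1.27% higher and 0.991% lower. The BMP response list reaches furthest to the left (5 of 10) and the fibrillar collagens furthest to the right (2 of 6).

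Over all 40 lists, 100 of the 431 called genes were members. The lists with the largest share of higher genes were the fibrillar collagens, matrix proteases and inhibitors, mesenchymal and contractile genes and keratins, as the plot of the list shares shows. Lists of fewer than 10 tested genes rest on 1 or 2 calls. Without control replicate 2, 32 list genes were called, and without control replicate 1, 194 were.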

How the data were processed

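RNA depleted of ribosomal RNA was sequenced from 6 PEO4 cultures, 3 per condition. The deposited table holds whole-number counts per gene, made by the authors. The submitters' processing notes name Trimmomatic 0.36, STAR 2.5.2b, featureCounts of Subread 1.5.2, DESeq2 and GRCh38. The authors' deposited comparison table holds a normalized signal per library, log2 fold changes and p-values, per the file headers, and only its calls were used. Counts were filtered (filterByExpr), scaled (TMM) and tested two-sided with edgeR 4.0.16 in R 4.3.3, using its quasi-likelihood test with Benjamini-Hochberg adjustment over all 19064 genes. The standard error is the size of the log2 fold change over the square root of F. FPKM divides mean CPM by the exon length in GENCODE 29, in which 56898 of 57500 gene IDs were found.

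The 40 lists (1109 genes) and the comparison were chosen with earlier results of these data known. Named were the 15 genes with the highest and the 15 with the lowest log2 fold change, out of those called at 5 CPM or more with non-overlapping groups and a gene symbol, called list genes, the 3 highest and 3 most changed genes of each list, and a fixed set of pathway and EMT genes. A few genes that this rule names are not reported here. Beyond this rule, genes at the edge of the threshold or of known role, and all genes of the last section, were chosen after their values were seen. Alternatives were DESeq2 1.42.0, limma-voom (limma 3.58.1), a test against 1.5-fold, other scalings and filters, all 12 libraries, a replicate block, leaving out each library, and, added later, GC correction. The edgeR step was tested on simulated data. Floors of 3 counts cover counting error only, since no molecular identifiers are named.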

Additional observations from a re-analysis of the deposited data

How the results depend on the processing

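Counts are given as all called genes, higher, lower and called list genes, which were 431, 242, 189 and 100. DESeq2 gave 967, 553, 414 and 186. No filter on low counts gave 1457, 891, 566 and 263. A test against a 1.5-fold change gave 48, 31, 17 and 25, and 1 model of all 12 libraries gave 165, 104, 61 and 51. The cause of these differences was not tested, apart from the stricter null of the 1.5-fold test. Leaving out 1 library gave 72 to 1080 called genes, 38 to 730 higher, 34 to 350 lower and 32 to 194 list genes, lowest without control replicate 2 and highest without control replicate 1. The share of higher genes was 56.1% with all libraries and 67.6% without control replicate 1. Leaving out control replicate 3 brought it to 47.2%, with 110 genes higher and 123 lower. Scaling by RLE, by the upper quartile or by totals, limma-voom, a minimum of 10 counts in each library and leaving mitochondrial and small RNA genes out gave 426 to 500 called genes. A correction for GC content, added after the data were seen, gave 403.

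The replicate numbers did not pair all libraries by the rule used. Deviations from the group means correlated by 0.291, -0.14 and 0.481 between libraries of the same number. Control replicate 2 correlated best with TGF-β replicate 1 (0.239). Control replicates 1 and 3 each correlated best with the TGF-β library of their own number. Across these numbers the values were -0.398 (control 1, TGF-β 3) and -0.486 (control 3, TGF-β 1). Part of the spread thus went with replicate number, and its source was not tested. With the replicate block the counts were 2102, 1210, 892 and 338, and with GC correction and replicate block together 1815, 1124, 691 and 307.

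Genes that were not called could change sign. Without control replicate 1, SMAD3 was at 0.0225 and SNAI1 at 0.205 (log2 fold change). Leave-one-out values ran from -0.277 to 0.0225, -0.244 to 0.205, -0.124 to 0.897, -0.2401 to 0.122, -0.0743 to 0.201 and -0.0516 to 0.0802 for SMAD3, SNAI1, ZEB1, ZEB2, CDH1 and PAX8. PAX8 was at -0.0111 with GC correction and at -0.0138 with GC correction and replicate block. The common biological coefficient of variation was 0.152, and 3 counts corresponded to 0.134 to 0.163 CPM. How small a change can be detected at each expression level was not tested.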

Other observations

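All genes in this section were picked after their values had been seen, and they belong to none of the lists above. CRABP2, which carries retinoic acid inside the cell, was at 154, 210.0 and 183 CPM in control and 69.8, 125 and 87.8 CPM with TGF-β (log2 fold change -0.95, SE 0.20, edgeR adjusted p = 0.0444). A further NADPH oxidase gene rose beside NOX4. NOX5, a calcium-activated oxidase, went from 3.47, 3.37 and 2.54 CPM to 7.75, 6.83 and 6.404 CPM (log2 fold change 1.16, SE 0.19, edgeR adjusted p = 0.0182). CYGB, the oxygen-binding cytoglobin, rose by 1.26 on the log2 scale (adjusted p = 0.00683). CRABP2 lost the call without control replicate 2, control replicate 3, TGF-β replicate 1 or TGF-β replicate 3 (up to 0.211), NOX5 without control replicate 2, TGF-β replicate 1 or TGF-β replicate 2 (up to 0.0894) and CYGB without control replicate 2 (0.0546).

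PLXND1, a semaphorin receptor, went from 53.8, 44.3 and 60.1 CPM to 133, 149.5 and 194 CPM (log2 fold change 1.59, SE 0.16, edgeR adjusted p = 0.00233), and SEMA5A, a transmembrane semaphorin, from 71.6, 91.5 and 97.1 CPM to 34.7, 42.1 and 43.8 CPM (log2 fold change -1.11, SE 0.13, edgeR adjusted p = 0.004802). Both were called in all 6 fits that each left out 1 library. UPP1 and CDA, enzymes of pyrimidine salvage, rose by 1.44 and 1.52 on the log2 scale (adjusted p = 0.0127 and 0.01197) and lost the call without control replicate 2 or TGF-β replicate 1 (up to 0.0872 and 0.058).

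SLC48A1, a heme transporter, was at 611, 622 and 661 CPM in control and 305, 338 and 325 CPM with TGF-β (log2 fold change -0.97, SE 0.08, edgeR adjusted p = 0.00145). ABCA4, a lipid transporter best known from the retina, went from 109, 142 and 122 CPM to 36.4, 49.8 and 38.4 CPM (log2 fold change -1.58, SE 0.14, edgeR adjusted p = 0.00145), and SERPINA1, alpha-1 antitrypsin, from 76.4, 93.97 and 94.1 CPM to 46.3, 50.5 and 44.2 CPM (log2 fold change -0.91, SE 0.10, edgeR adjusted p = 0.00375). AMIGO2, an adhesion molecule, rose from 221, 148 and 136 CPM to 556, 510.2 and 559 CPM (log2 fold change 1.68, SE 0.17, edgeR adjusted p = 0.00233). All 4 were called in each fit without 1 library.

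The largest rise among genes of at least 5 CPM was in a long noncoding RNA that has only a clone name, AC245041.1 (chr10:47970043-47973496 on the minus strand in GENCODE 29, GRCh38). It was at 1.22, 1.09 and 0.612 CPM in control and 11.8, 11.2 and 11.9 CPM with TGF-β (log2 fold change 3.58, SE 0.23, edgeR adjusted p = 0.000485). AC245041.2, whose annotated span of chr10:47908064-47991850 on the same strand contains it, went from 3.01, 1.25 and 1.51 CPM to 14.6, 15.7 and 13.7 CPM (log2 fold change 2.93, SE 0.27, edgeR adjusted p = 0.00196). Both were called in each fit without 1 library. The files do not show whether these are separate transcripts.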
